A study of Mus musculus with 18 samples.

Results

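Expression of 8 genes for enzymes that shape B cell surface glycans was described in splenic and Peyer's patch (PP) B cells of mice with experimental egg allergy. The genes, *Cmah*, *St6gal1*, *St3gal1*, *Gcnt1*, *B3gnt5*, *Fut8*, *Chst10*, and *Hs3st1*, were chosen by name from the 55491 genes of the count table, and all 8 were present and were tested in every comparison. The choice was made with earlier results of these data known. Counts of members called, set beside shares of all genes, are therefore descriptive. Female BALB/cJ mice, aged 4 to 6 weeks at the start and 10 to 12 weeks at harvest, all received 20 µg of ovalbumin (OVA) with 1 mg of alum i.p. on days 0 and 14, controls included. On days 28 and 42 they were given i.v. 2.5 mg of OVA NPs (OVA inside poly(lactide-co-glycolide) nanoparticles), 100 µg of soluble OVA, or 100 µL of PBS. B cells were obtained on day 44 by magnetic removal of other cells, so that naive, germinal center, and antibody-secreting B cells were measured as a mixture. There were 18 libraries, 3 for each of the 6 combinations of tissue and treatment.

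B cells carry sialic acids at the tips of many surface glycans, and these change when naive B cells enter a germinal center. CMAH turns the sialic acid Neu5Ac into Neu5Gc, the form that naive mouse B cells prefer, and its loss in germinal centers exposes the epitope seen by the antibody GL7. ST6GAL1 adds the sialic acid that the inhibitory receptor CD22 binds. ST3GAL1 caps core 1 O-glycans with sialic acid, which hides the sugar bound by peanut agglutinin, the other classic germinal center stain, and GCNT1 builds the core 2 branch from the same core 1 precursor. B3GNT5 starts lacto-series glycolipids, FUT8 adds the core fucose of N-glycans, CHST10 sulfates the HNK-1 glycan, and HS3ST1 adds a rare sulfate to heparan sulfate.

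The stretches before the transcription starts of *Cmah* and *B3gnt5*, which were lower after both OVA treatments in spleen, of *Fut8*, which was higher, and of *Chst10*, which was higher after OVA NPs, are shown so that the genes that moved in opposite directions can be read side by side. Sequences are the 250 bases upstream of a RefSeq start in GRCm38.p6, 5′ to 3′ on the strand of the gene; 7 of the 8 genes had an entry, all but *St3gal1*. Capitals mark matches on either strand to motifs that promoters often hold. They were the letters CCAAT, called by that name; the letters GGGCGG, the usual form of the GC box; and the letters GAGGAA, the usual form of the purine-rich PU box. The other motifs searched were the letters TATAAA, for the box of TATA-binding protein, and the letters ATGCAAAT, for the octamer bound by POU factors. No matches overlapped.
Cmah, chr13:24327154-24327403, plus strand: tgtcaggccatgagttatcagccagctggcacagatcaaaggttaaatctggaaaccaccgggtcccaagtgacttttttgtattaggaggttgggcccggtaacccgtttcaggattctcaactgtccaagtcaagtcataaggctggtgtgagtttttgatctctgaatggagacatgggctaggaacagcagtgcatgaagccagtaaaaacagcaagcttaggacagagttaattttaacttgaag
B3gnt5, chr16:19759984-19760233, plus strand: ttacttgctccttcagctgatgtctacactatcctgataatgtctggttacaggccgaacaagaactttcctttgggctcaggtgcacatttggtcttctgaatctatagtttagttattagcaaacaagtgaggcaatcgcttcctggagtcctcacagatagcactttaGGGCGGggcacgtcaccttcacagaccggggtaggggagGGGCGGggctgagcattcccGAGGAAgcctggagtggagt
Fut8, chr12:77237854-77238103, plus strand: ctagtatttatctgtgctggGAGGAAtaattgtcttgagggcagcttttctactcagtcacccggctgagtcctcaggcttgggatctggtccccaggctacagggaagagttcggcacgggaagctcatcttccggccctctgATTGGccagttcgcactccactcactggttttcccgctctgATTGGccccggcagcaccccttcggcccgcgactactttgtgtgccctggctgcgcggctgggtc
Chst10, chr1:38898161-38898410, minus strand: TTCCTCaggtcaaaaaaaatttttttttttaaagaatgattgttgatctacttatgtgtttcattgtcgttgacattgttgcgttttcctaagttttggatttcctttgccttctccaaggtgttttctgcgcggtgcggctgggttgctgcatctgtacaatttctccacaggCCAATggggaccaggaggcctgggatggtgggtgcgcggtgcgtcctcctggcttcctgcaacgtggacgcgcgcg

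The *Cmah* window held none of the 5 motifs. *B3gnt5* had 2 GC boxes and 1 PU box, *Fut8* 2 CCAAT boxes and 1 PU box, and *Chst10* 1 CCAAT box and 1 PU box. Of 32817 mouse windows of this length, 33.8% held a CCAAT box, 32.7% a GC box, 23.3% a PU box, 12.4% a TATA-binding protein box, and 1.6% the octamer, so each match is of a common kind. CG dinucleotides numbered 3 for *Cmah*, 7 for *B3gnt5*, 12 for *Fut8*, and 13 for *Chst10*, against a median of 6 over all windows. RefSeq lists other starts for *Cmah* and *Fut8*, and the one nearest the annotated gene start is shown. The 50 bases after the start shown lay in 1 of 10 annotated transcripts of *Cmah*, 3 of 7 of *B3gnt5*, and 1 of 8 of *Chst10*. For *Fut8* they lay in 0 of 7, while those of 2 starts further downstream lay in 2 and 1 of 7. The *Fut8* window is therefore that of a RefSeq start without such a transcript. In the GRCm38 annotation the 8 protein-coding genes lie on 7 chromosomes. They are *Cmah* (chr13:24327404-24477377, plus strand), *St6gal1* (chr16:23224740-23360350, plus), *St3gal1* (chr15:67102875-67176830, minus), *Gcnt1* (chr19:17326141-17372844, minus), *B3gnt5* (chr16:19760208-19772753, plus), *Fut8* (chr12:77238125-77476338, plus), *Chst10* (chr1:38863867-38898161, minus), and *Hs3st1* (chr5:39613935-39755475, minus). *St6gal1* shares 200 exon bases with an antisense gene, BC106179, and *Fut8* shares 75 with another, 9530018F02Rik. Whether reads were counted by strand was not given in the sources used here, so reads of these pairs cannot be told apart.

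Library totals ran from 14177253 to 30052297 counts, at which 3 counts equal 0.105 to 0.220 CPM (counts normalized to library depth, with sizes scaled by the trimmed mean of M values over all libraries). The lowest member value, 12.2 CPM for *Hs3st1*, was far above that level. Summed B cell markers stood at 7360 to 8788 CPM in the spleen libraries and at 5429 to 6815 CPM in those of PPs. The 8 germinal center markers (*Bcl6*, *Fas*, *S1pr2*, *Rgs13*, *Mybl1*, *Gcsam*, *Mef2b*, *Nuggc*) summed to 103 to 163 CPM in spleen after PBS, 348 to 493 after soluble OVA, and 335 to 368 after OVA NPs. The PP sums were 1028 to 1234, 1902 to 1943, and 823 to 1248 CPM, respectively. Epithelial markers were at 6.45 to 9.34 CPM in spleen and 142 to 663 CPM in PPs, and mitochondrial genes took 9.08% to 9.80% of counts in PPs after OVA NPs against 5.41% to 7.67% after PBS. Replicate 1 of PPs after OVA NPs stood apart with the 823 CPM of germinal center markers, as did replicate 2 of PPs after PBS with the smallest total. Replicate 1 of PPs after soluble OVA also differed from replicates 2 and 3. It had 164 CPM of epithelial markers against 663 and 614, and 1002 CPM of follicular naive markers against 698 and 761. In bulk samples, fewer cells of a type and less RNA per cell cannot be told apart.

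**Figure D1:**
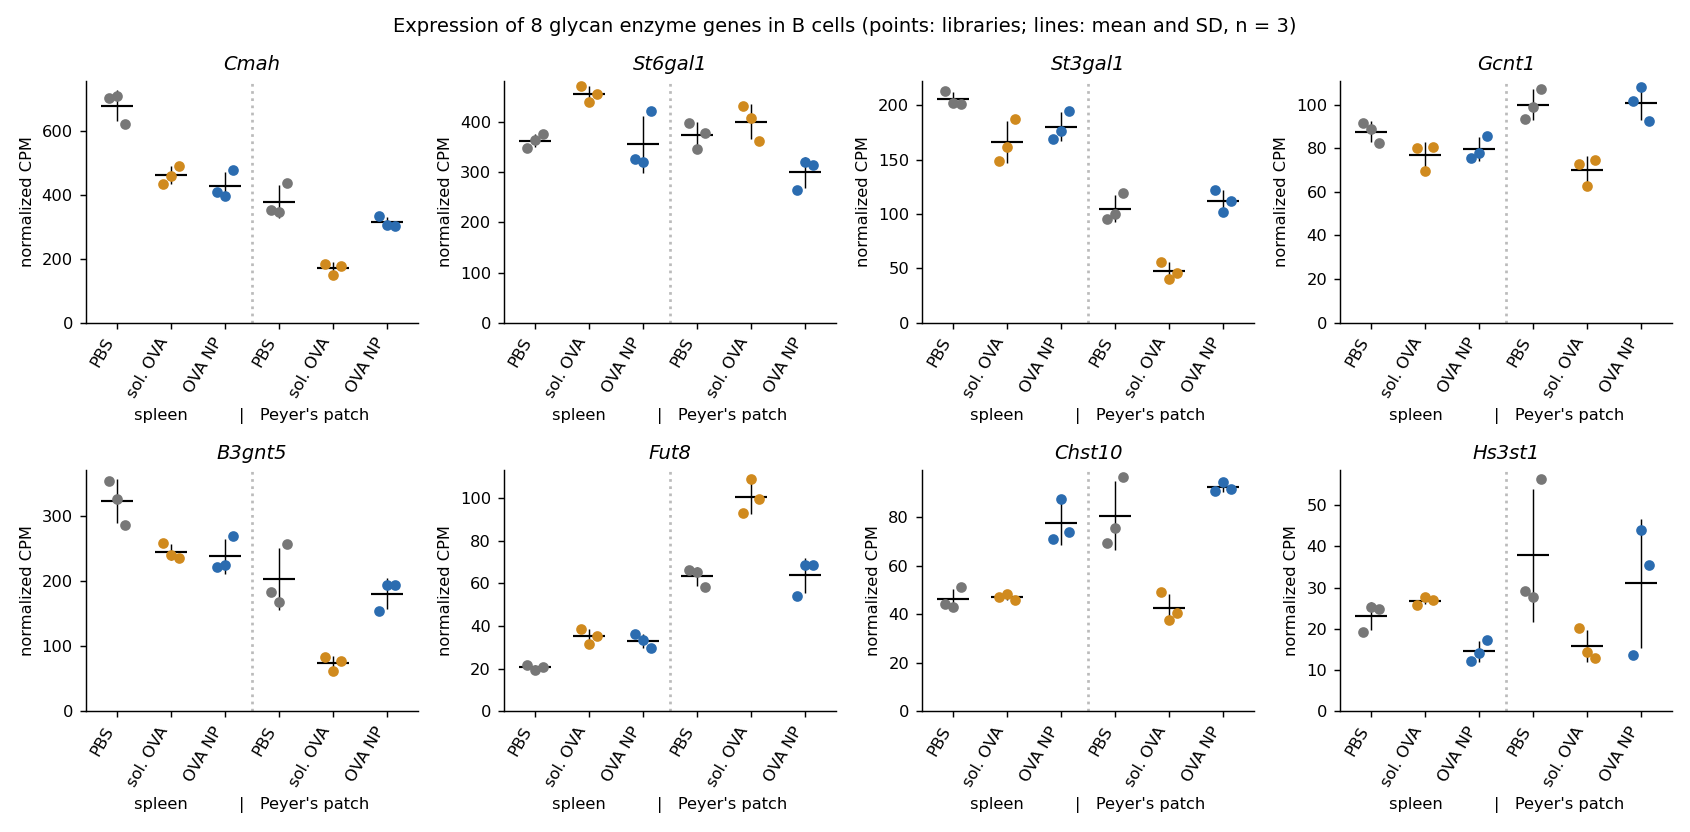
Normalized CPM of each of the 8 genes (vertical axes, from 0) in spleen and Peyer's patch B cells after PBS (gray), soluble OVA (orange), or OVA NPs (blue). Points are libraries and lines the mean and SD (n = 3). *Cmah* is highest in the 3 spleen PBS libraries (624 to 712 CPM) and *Fut8* lowest there (19.3 to 21.7 CPM), and *Chst10* after OVA NPs in spleen (70.9 to 87.7 CPM) lies above its other 6 spleen libraries.

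Levels per kilobase used merged exons of all annotated transcripts, not the transcripts expressed, so the order of genes depends on the annotation. By CPM alone in spleen after PBS, *Cmah* was above *St6gal1* (680 and 363 CPM) and *Chst10* above *Hs3st1* (46.2 and 23.1 CPM). Per kilobase, *St6gal1* had the highest level in spleen after PBS, at 73.9 ± 2.76 CPM/kb (SD, n = 3). *Cmah* at 63.8 ± 4.56 and *B3gnt5* at 61.9 ± 6.51 CPM/kb followed and did not differ beyond their spread. *St3gal1* came next at 30.0 ± 0.995, then *Gcnt1* at 15.2 ± 0.821, *Hs3st1* at 10.4 ± 1.54, *Chst10* at 3.86 ± 0.362, and *Fut8* at 2.61 ± 0.155 CPM/kb. In PPs after PBS *St6gal1* was again first, at 76.3 ± 5.36 CPM/kb, while *Cmah* stood at 35.6 ± 4.84 and *B3gnt5* at 39.0 ± 9.13 CPM/kb. *Fut8* there, at 8.01 ± 0.559, was level with *Chst10* at 6.73 ± 1.19 CPM/kb.

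What OVA NPs change in splenic B cells, against PBS, is the first comparison. The sialic acid hydroxylase *Cmah* and the glycolipid gene *B3gnt5* fell, as did *Hs3st1*, while core fucosyltransferase *Fut8* and sulfotransferase *Chst10* rose. *St6gal1*, *St3gal1*, and *Gcnt1* did not pass the rule for a call, an adjusted p under 0.05 with a log2 change over 0.25 in size. *Cmah* was at 705, 712, and 624 CPM after PBS and at 409, 397, and 479 CPM after OVA NPs. The groups did not overlap, and the log2 fold change was -0.66 ± 0.0747 (SE; adjusted p = 6.59e-05, edgeR's quasi-likelihood test). *Chst10* was at 44.4, 43.1, and 51.1 CPM after PBS and at 70.9, 87.7, and 73.9 CPM after OVA NPs. Every OVA NP library was thus above every PBS library, with a log2 fold change of 0.75 ± 0.0883 (adjusted p = 0.000187). Of all genes tested, 37.2% likewise had groups that did not overlap in this comparison. *Fut8* went from 21.7, 19.3, and 20.9 CPM to 36.3, 33.3, and 29.8 CPM, a log2 fold change of 0.69 ± 0.0904 (adjusted p = 0.000118).

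*Hs3st1* was at 19.1, 25.4, and 24.8 CPM after PBS and 12.2, 14.1, and 17.4 CPM after OVA NPs in spleen. Its log2 fold change was -0.65 ± 0.139 (adjusted p = 0.00708), a call lost when all 18 libraries shared 1 fit (adjusted p = 0.34). *B3gnt5* changed by -0.43 ± 0.0926 (adjusted p = 0.0108, or 0.0863 with all 18 libraries in 1 fit), from 286 to 354 CPM down to 220 to 269 CPM. *St3gal1* had a small difference of -0.18 ± 0.058 with an adjusted p of 0.0364, under the fold cutoff, and *St6gal1* one of -0.02 with a 95% interval from -0.21 to 0.17. All 95% intervals given are normal approximations from the SE, and are narrower than edgeR's test implies for so few libraries. The 2 members called higher and 3 called lower stand beside 15% of all 14200 genes tested (8.6% higher and 6.35% lower). In the same libraries 7 of 8 germinal center markers and all 7 markers of dividing cells rose, as did 2 of 6 plasma cell markers tested, and all 5 follicular naive, 3 of 5 marginal zone, and 2 of 6 monocyte and macrophage markers fell; their part in the member changes was not tested.

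Soluble OVA in spleen showed the same kind of shift for *Cmah*, *B3gnt5*, and *Fut8*, and a different one for the sulfotransferases. *Cmah* stood at 435, 461, and 491 CPM after soluble OVA, a log2 fold change of -0.56 ± 0.0747 against PBS (adjusted p = 0.000148). *Fut8* stood at 38.5, 31.5, and 35.5 CPM, with a log2 fold change of 0.77 ± 0.0905 (adjusted p = 4.12e-05), and *B3gnt5* was lower by -0.40 ± 0.0758 (adjusted p = 0.00219). *St6gal1* rose here, from 349, 365, and 376 CPM to 472, 440, and 456 CPM, by 0.33 ± 0.0612 (adjusted p = 0.00183). *St3gal1* was lower by -0.31 ± 0.0788 (adjusted p = 0.0132), a call lost without PBS replicate 1 (adjusted p = 0.0713), soluble OVA replicate 2 (0.0511), or soluble OVA replicate 1, where the change shrank to -0.22. *Chst10* stood at 47.0, 48.4, and 45.7 CPM, inside the PBS range, and its log2 difference of 0.03 had a 95% interval from -0.12 to 0.18. *Hs3st1* was at 25.8, 27.6, and 27.0 CPM, with a log2 difference of 0.21 that did not pass the test (adjusted p = 0.175). Of the 8 members 5 were called, beside 17.2% of all 14128 genes tested (10.5% higher and 6.72% lower). All 8 germinal center and all 7 dividing cell markers rose in these libraries, as did 2 of 6 plasma cell markers tested (1 fell). Of 5 follicular naive markers 3 fell, as did 3 of 5 marginal zone and 4 of 6 monocyte and macrophage markers. The part of all these markers in the member changes was not tested.

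Set directly against soluble OVA, OVA NPs left 2 members different in spleen, and they are the sulfotransferases. *Chst10* was higher after OVA NPs by 0.73 ± 0.0845 on the log2 scale (adjusted p = 0.00419, edgeR). *Hs3st1* was lower by -0.87 ± 0.12 (adjusted p = 0.00686), with 12.2 to 17.4 CPM after OVA NPs and 25.8 to 27.6 CPM after soluble OVA. The background in this comparison was low, with 33 of 13840 genes called, or 0.238% (0.137% higher and 0.101% lower). The *Chst10* call was lost without soluble OVA replicate 1 (adjusted p = 0.0658) or OVA NP replicate 2 (0.136). That of *Hs3st1* was lost without either of these (0.0747 and 0.18) or soluble OVA replicate 3 (0.0734), while its log2 difference stayed between -1.02 and -0.76. *St6gal1*, at 327, 321, and 422 CPM after OVA NPs and 440 to 472 CPM after soluble OVA, differed by -0.35 ± 0.0964 and did not pass (adjusted p = 0.244), although DESeq2 called it (adjusted p = 0.0356), as did the fit without OVA NP replicate 3 (0.02). Of 8 germinal center markers edgeR called 1 in this comparison, lower after OVA NPs, and DESeq2 called 2. By edgeR 5 of the 8 had an unadjusted p under 0.05, and their median log2 difference was -0.36. The part of these markers in the member differences was not tested.

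**Figure D2:**
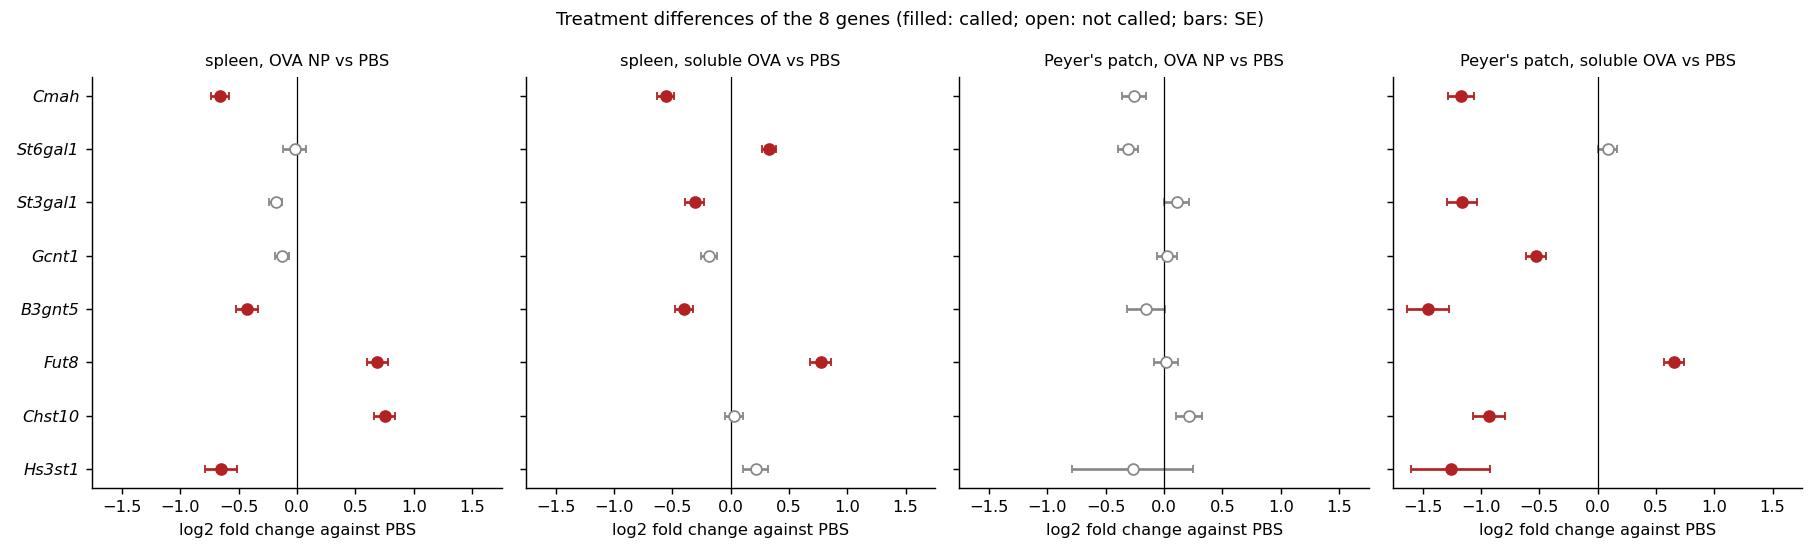
Log2 fold change against PBS (horizontal axes) of the 8 genes after OVA NPs or soluble OVA in spleen and Peyer's patches; bars are SE, filled points are called genes, and open points are not called. In spleen *Fut8* is called higher after both treatments (0.69 and 0.77) and *Chst10* after OVA NPs (0.75), and in Peyer's patches all points after OVA NPs are open while 7 of 8 are filled after soluble OVA.

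In PPs the treatment with the large differences was soluble OVA. Against PBS, *Cmah*, *St3gal1*, *Gcnt1*, *B3gnt5*, *Chst10*, and *Hs3st1* were lower, *Fut8* was higher, and only *St6gal1* of the 8 did not pass. *B3gnt5* went from 183, 257, and 168 CPM to 83.4, 62.2, and 77.7 CPM, a log2 fold change of -1.45 ± 0.183 (adjusted p = 0.00197). *Cmah* was at 353, 439, and 347 CPM after PBS and 185, 148, and 176 CPM after soluble OVA, lower by -1.17 ± 0.112 (adjusted p = 0.000158). *St3gal1*, whose product caps core 1 O-glycans, was at 95.6, 119, and 99.6 CPM and fell to 55.9, 39.7, and 46.0 CPM, a log2 change of -1.16 ± 0.132 (adjusted p = 0.000523). *Gcnt1*, which acts on the same core 1 precursor, was lower by -0.53 ± 0.0867 (adjusted p = 0.00224).

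*Chst10*, level in spleen after soluble OVA, was at 49.2, 37.8, and 40.5 CPM in PPs against 69.5, 96.6, and 75.6 CPM after PBS, lower by -0.93 ± 0.139 (adjusted p = 0.002). *Fut8* rose from 66.4, 58.2, and 65.2 CPM to 93.0, 109, and 99.6 CPM, by 0.65 ± 0.0883 (adjusted p = 0.000816). *Hs3st1* was lower by -1.26 ± 0.339, close to the threshold (adjusted p = 0.0439). Its PBS libraries held 29.2, 56.4, and 27.8 CPM, and leaving out PBS replicate 1 or 3 or any soluble OVA replicate took the call away (adjusted p = 0.0565 to 0.191). *St6gal1* differed by 0.09 on the log2 scale, with a 95% interval from -0.08 to 0.25. The 7 members called, 1 higher and 6 lower, stand beside 27.4% of all 15792 genes tested (13.5% higher and 13.9% lower). In these libraries 7 of 8 germinal center markers and all 7 of dividing cells rose. All 5 follicular naive markers fell, their sum going from 2174 to 2874 CPM down to 698 to 1002 CPM. Of 5 marginal zone markers 4 fell, as did 2 of 6 B cell markers. Whether the members moved with these cells was not tested.

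OVA NPs in PPs gave no call against PBS, neither among the 8 members nor among all 15798 genes tested (0%, edgeR). At an unadjusted p under 0.05 there were 2 members and 1573 genes, and DESeq2 called 0 members and 150 genes. The 2 members were *Cmah*, at 335, 306, and 303 CPM and with a 95% interval of the log2 difference from -0.46 to -0.06, and *St6gal1*, at 265, 321, and 316 CPM and with an interval from -0.47 to -0.15. The interval for *Fut8* ran from -0.18 to 0.21 and that for *Gcnt1* from -0.14 to 0.20, whereas that for *Hs3st1* was wide, -1.29 to 0.75. *Hs3st1* was at 13.7 CPM in OVA NP replicate 1 and at 43.9 and 35.6 CPM in the others, and its coefficient of variation of 50.4% compares with a median of 8.19% over 10527 genes in that group. Leaving out that replicate moved its log2 difference from -0.27 to 0.08.

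With soluble OVA as the reference, 7 of 8 members differed after OVA NPs in PPs, beside 30.1% of all 15599 genes tested (13.8% higher and 16.3% lower). *Cmah* (0.90 ± 0.108), *St3gal1* (1.26 ± 0.146), *Gcnt1* (0.54 ± 0.0987), *B3gnt5* (1.29 ± 0.136), and *Chst10* (1.13 ± 0.112) were higher after OVA NPs on the log2 scale. *Fut8* (-0.65 ± 0.0961) and *St6gal1* (-0.41 ± 0.101) were lower. Adjusted p ranged from 0.000369 for *Chst10* to 0.0149 for *St6gal1* among them, and *Hs3st1* differed by 0.97 ± 0.476 without passing (adjusted p = 0.198). Without OVA NP replicate 1, *Hs3st1* was called as well, at 1.27 (adjusted p = 0.00527). This comparison shares its libraries with the other PP comparisons, and in it 7 of 8 germinal center and all 7 dividing cell markers were lower after OVA NPs. Higher were 4 of 5 follicular naive, 3 of 5 marginal zone, 4 of 7 T cell (1 was lower), and 3 of 5 monocyte and macrophage markers tested, and the part of these in the member differences was not tested.

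Between tissues after PBS, *Fut8* and *Chst10* were higher in PPs and *Cmah*, *St3gal1*, and *B3gnt5* were lower. *Fut8* was higher in PPs by 1.64 ± 0.086 on the log2 scale (3.11-fold; adjusted p = 8.37e-07) and *Chst10* by 0.81 ± 0.115 (adjusted p = 0.000395). *St3gal1* was lower in PPs by -0.96 ± 0.0756 (adjusted p = 7.59e-06), *Cmah* by -0.83 ± 0.0872 (adjusted p = 5.41e-05), and *B3gnt5* by -0.66 ± 0.155 (adjusted p = 0.0116). *Gcnt1* differed by 0.20 ± 0.0669, under the fold cutoff (adjusted p = 0.0277), and *St6gal1* by 0.06 (adjusted p = 0.429). *Hs3st1* differed by 0.71 ± 0.298 without passing (adjusted p = 0.101) and was called at 0.33 (adjusted p = 0.0344) once PP PBS replicate 2, at 56.4 CPM, was left out; DESeq2 called it with all libraries (adjusted p = 0.00604). Of all 15463 genes 45.6% were called here (25.5% higher and 20.1% lower), so 5 of 8 members is near that background. All 8 germinal center markers and all 4 epithelial markers were higher in PPs than in spleen after PBS, and 5 of 6 B cell markers were lower. Also higher were 7 of 7 dividing cell, 5 of 6 plasma cell, and 4 of 4 T cell markers tested. Lower were 4 of 5 marginal zone, 4 of 6 monocyte and macrophage, and 3 of 5 follicular naive markers (1 was higher). The part of these in the member differences was not tested.

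After soluble OVA the tissue gap was wider for *St3gal1* (-1.81 ± 0.136), *B3gnt5* (-1.71 ± 0.105), and *Cmah* (-1.45 ± 0.0957), *Fut8* remained higher in PPs (1.51 ± 0.0924), and *Hs3st1* was lower (-0.76 ± 0.155; adjusted p = 0.00279). These 5 members were called beside 51.1% of 15415 genes (26.7% higher and 24.3% lower). *Chst10* stood at 42.5 ± 5.99 CPM in PPs and 47.0 ± 1.3 CPM in spleen and did not pass (adjusted p = 0.25). After OVA NPs 6 members were called beside 37.1% of 15466 genes (22% higher and 15.1% lower). *Fut8* (0.99 ± 0.105), *Gcnt1* (0.39 ± 0.0784), and *Chst10* (0.30 ± 0.0822) were higher in PPs, and *St3gal1* (-0.64 ± 0.0854), *Cmah* (-0.39 ± 0.0839), and *B3gnt5* (-0.35 ± 0.1) were lower. Leaving out spleen OVA NP replicate 3 took away the calls of *B3gnt5* (adjusted p = 0.0643) and *Chst10* (0.0627), and leaving out replicate 1 that of *Chst10* (0.0669). Without PP OVA NP replicate 1, *Hs3st1* was called higher in PPs, at 1.47 (adjusted p = 2.5e-05), from 1.13 with all libraries (adjusted p = 0.103). After either OVA treatment all 8 germinal center and all 4 epithelial markers were higher in PPs, and 5 of 6 B cell markers were lower. So were 4 of 5 follicular naive markers after either, and 5 of 5 marginal zone markers after soluble OVA and 4 of 5 after OVA NPs. Higher after either were 4 of 6 plasma cell markers tested. T cell markers were higher for 3 of 5 tested after soluble OVA and 7 of 7 after OVA NPs, and dividing cell markers for 7 of 7 and 3 of 7. The part of these in the member differences was not tested.

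**Figure D3:**
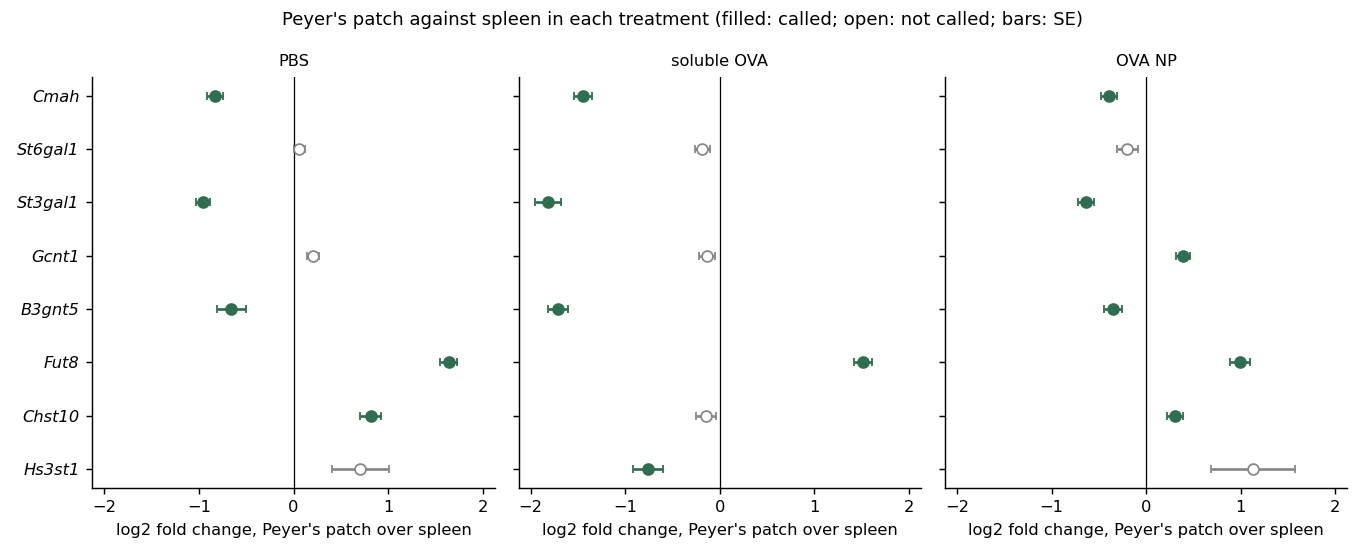
Log2 fold change of Peyer's patch over spleen B cells (horizontal axes) for the 8 genes in mice given PBS, soluble OVA, or OVA NPs; bars are SE, filled points are called genes, and open points are not called. *Fut8* is higher in Peyer's patches in all 3 treatments (1.64, 1.51, and 0.99), while *Cmah*, *St3gal1*, and *B3gnt5* are lower, most of all after soluble OVA.

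Whether a treatment acted differently in the 2 tissues was tested as the tissue by treatment term. For OVA NPs against PBS, *Fut8* was the member called, beside 4.42% of 16619 genes (0.872% higher and 3.54% lower). Its rise of 0.69 in spleen had a counterpart of 0.02 in PPs, a difference of -0.66 ± 0.139 (PP minus spleen; adjusted p = 0.0171). That call was lost without spleen PBS replicate 2 (adjusted p = 0.0568), spleen OVA NP replicate 1 (0.0578), or PP PBS replicate 1 (0.051). *Chst10*, with a term of -0.52 (adjusted p = 0.0804), and *Cmah*, with 0.42 (adjusted p = 0.0991), did not pass; DESeq2 called both (adjusted p = 0.0427 and 0.03). *Cmah* was also called without spleen OVA NP replicate 3 (adjusted p = 0.0418) or PP PBS replicate 2 (0.0213), and *Chst10* without PP PBS replicate 1 (0.0485). Of 8 germinal center markers 7 had a negative term that passed the test.

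For soluble OVA the term was called for 5 members, all more negative in PPs, beside 6.84% of 16541 genes (1.77% higher and 5.07% lower). *Chst10* had a term of -0.95 ± 0.171 (adjusted p = 0.00427), *St3gal1* one of -0.85 ± 0.169 (adjusted p = 0.00895), and *B3gnt5* one of -1.05 ± 0.214 (adjusted p = 0.0126). The terms of *Cmah* (-0.61 ± 0.145; adjusted p = 0.0193) and *Hs3st1* (-1.47 ± 0.379; adjusted p = 0.0481) lost their calls with single libraries left out. *Cmah* missed the threshold without spleen PBS replicate 3 (adjusted p = 0.0601) or PP soluble OVA replicate 2 (0.0546) or 3 (0.0583), and *Hs3st1* without any spleen PBS or spleen soluble OVA replicate or PP soluble OVA replicate 2 or 3 (0.0855 to 0.117). *Fut8*, up in both tissues, had a term of -0.12 (adjusted p = 0.667). All 5 follicular naive markers and 6 of 8 germinal center markers had a negative term as well, and their part was not tested.

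Ratios of counts inside 1 library do not depend on library scaling. *Gcnt1* over *St3gal1*, the core 2 branching enzyme over the core 1 capping enzyme, had log2 means of -1.23 ± 0.0525 in spleen after PBS, -1.11 ± 0.185 after soluble OVA, and -1.18 ± 0.0114 after OVA NPs (SD, n = 3). In PPs it was -0.07 ± 0.0761, 0.58 ± 0.174, and -0.15 ± 0.204, respectively, so that all 9 PP libraries lay above all 9 of spleen. *St6gal1* over *Cmah* was -0.90 ± 0.15, -0.02 ± 0.119, and -0.27 ± 0.0772 in spleen and -0.01 ± 0.195, 1.24 ± 0.212, and -0.07 ± 0.234 in PPs, in the same order of treatments. For this ratio the libraries did not overlap between any 2 treatments in spleen, nor between soluble OVA and either other treatment in PPs. The exact 2-sided permutation p was 0.1 in each of these cases, the smallest that 3 against 3 can give. For OVA NPs against PBS in PPs it was 0.7. *Gcnt1* over *St3gal1* did not overlap between soluble OVA and either other treatment in PPs, nor between OVA NPs and PBS in spleen. The permutation p was again 0.1 in each.

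**Figure D4:**
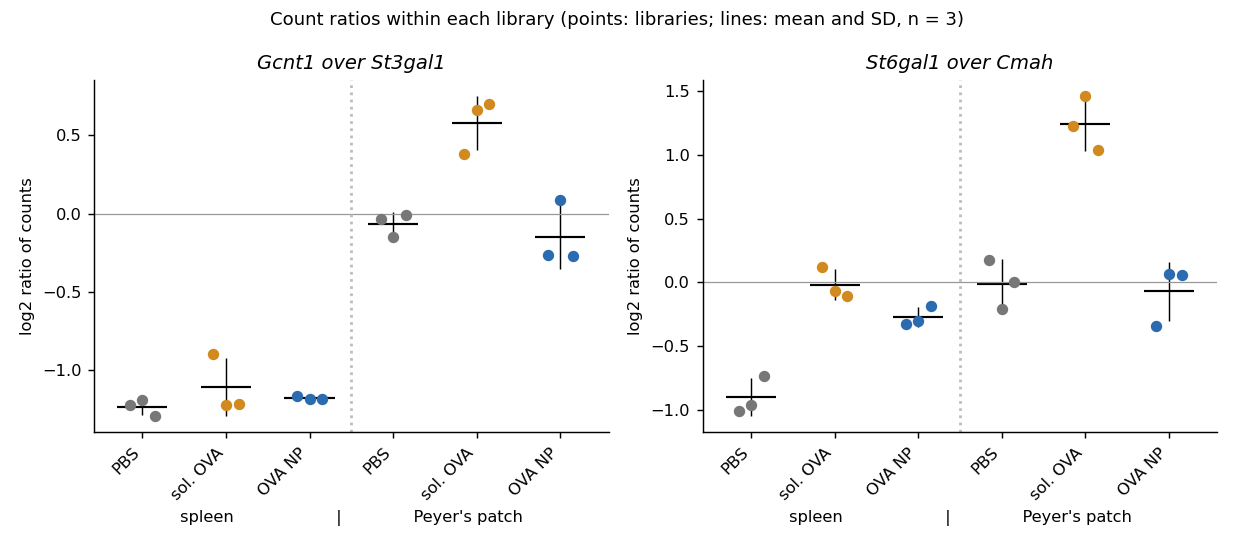
Log2 ratio of counts within each library for *Gcnt1* over *St3gal1* and *St6gal1* over *Cmah* in the 6 groups; points are libraries and lines the mean and SD (n = 3). *Gcnt1* over *St3gal1* lies between -1.29 and -0.89 in spleen and between -0.27 and 0.70 in Peyer's patches, and *St6gal1* over *Cmah* is highest after soluble OVA in Peyer's patches (1.04 to 1.47).

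Seen across libraries, the members fell into kinds. Within the 9 PP libraries *Cmah*, *St3gal1*, *Gcnt1*, *B3gnt5*, and *Chst10* had Pearson correlations of log2 CPM between 0.92 and 0.98 with each other, and *Fut8* had -0.91 to -0.98 with them; these libraries share 3 treatment groups, so the values describe the group pattern. In the 9 spleen libraries *Cmah* and *B3gnt5* stayed together (0.93), *Cmah* and *Fut8* opposed (-0.93), and *Chst10* went with neither (-0.66 with *Cmah* and 0.40 with *Fut8*) but against *Hs3st1* (-0.83). By group mean, *Cmah* was highest and *Fut8* lowest in the group with the lowest germinal center marker sums, spleen after PBS, and the reverse held in the group with the highest, PPs after soluble OVA. In spleen, *Chst10*, *Hs3st1*, and *St6gal1* did not overlap between the OVA treatments, nor did 14.2% of all genes. The germinal center marker sums (335 to 368 CPM after OVA NPs and 348 to 493 after soluble OVA) overlapped only through soluble OVA replicate 2. Those of 7 plasma cell markers did not overlap (647 to 666 and 536 to 606 CPM). By gene, edgeR called 1 of 8 germinal center markers, lower after OVA NPs (median log2 difference -0.36), and 5 of the 8 had an unadjusted p under 0.05. It called 0 of 6 plasma cell markers tested (median 0.14). The part of these cells was not tested.

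**Figure D5:**
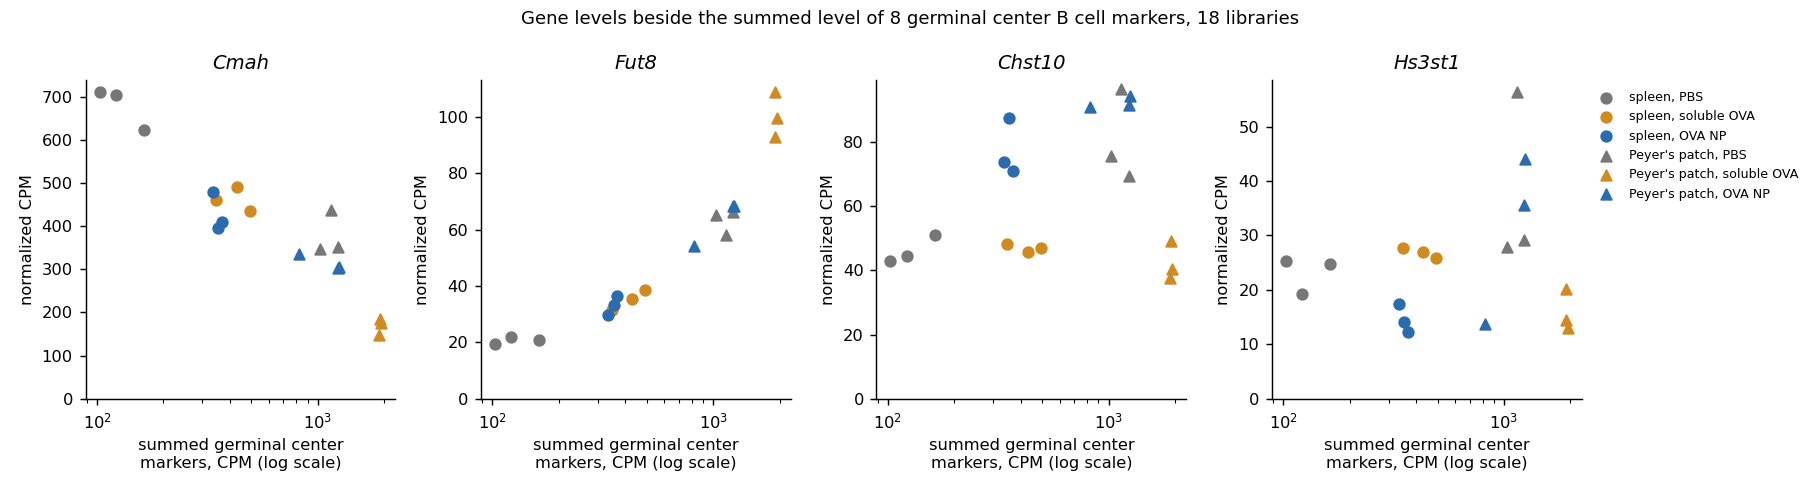
Normalized CPM of *Cmah*, *Fut8*, *Chst10*, and *Hs3st1* (vertical axes, from 0) against the summed CPM of 8 germinal center markers (horizontal log axes) in 18 libraries; circles are spleen, triangles Peyer's patches, and colors the treatments. The spleen OVA NP libraries, at 335 to 368 CPM of markers, have 70.9 to 87.7 CPM of *Chst10*. The spleen soluble OVA libraries, at 348 to 493 CPM of markers, have 45.7 to 48.4 CPM.

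Over the 9927 genes that averaged 5 CPM or more, those whose log2 CPM followed each member most closely over the 18 libraries were *Scml4* (r = 0.994), *Foxn3* (0.987), and *Grap2* (0.981) for *Cmah*. For *Fut8* they were *Plxnb2* (0.993), *Sh2b2* (0.991), and *Optn* (0.991), and for *St3gal1* *Arhgef18* (0.993), *Notch2* (0.991), and *Capn5* (0.989). *B3gnt5* was followed by *P2ry10b* (0.985), *Cd84* (0.984), and *Map3k1* (0.983). *Gcnt1* was nearest to *Trim39* (0.939), *Tle3* (0.927), and *Pisd-ps1* (0.907), and *St6gal1* to *Hscb* (0.899), *Pes1* (0.894), and *Arl2bp* (0.886). *Hs3st1* was nearest to *Bmp2k* (0.915), *Gch1* (0.886), and *Nfkbid* (0.863), and *Chst10* to *Dll1* (0.895), *Rnf24* (0.871), and *Znrf1* (0.832). Both tissues enter these values, so a gene that only separates spleen from PPs can rank high.

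Other genes of glycan synthesis and reading, 137 of 138 listed symbols being in the table, give the members' setting. In spleen after OVA NPs 5 rose and 8 fell of 106 tested, and after soluble OVA 5 rose and 13 fell of 106. These shares, 12.3% and 17.0%, are no higher than the 15% and 17.2% of all genes called. *B3gnt7*, which extends lactosamine chains, rose in spleen from 11.6 ± 2.19 CPM after PBS to 27.2 ± 4.67 after OVA NPs (log2 1.23, adjusted p = 0.000973) and 29.6 ± 2.82 CPM after soluble OVA (1.35, adjusted p = 7.45e-06). *Lgals1*, encoding the galactose-binding lectin galectin 1, rose after both (0.89 and 0.86), as did *Nans*, which makes sialic acid. *Chst1*, another sulfotransferase, rose after OVA NPs (1.14), from 1.06 ± 0.118 to 2.35 ± 0.505 CPM. *St8sia6*, a sialyltransferase, fell after both (-0.48 and -0.78), and *Mgat4a*, an N-glycan branching enzyme, was among the genes lower after both OVA treatments. Between OVA NPs and soluble OVA in spleen none of 104 was called by edgeR nor any of 110 by DESeq2, and 13 had an unadjusted p under 0.05.

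In PPs after soluble OVA 8 of these genes rose and 35 fell of 116 tested (median log2 change -0.18, against -0.02 over all genes), beside 13.5% of all genes that rose and 13.9% that fell. Of 12 sialyltransferases other than the members 6 fell and 0 rose, and of 17 lacto-series, polylactosamine, and glycolipid genes 8 fell and 0 rose, *B3gnt7* by -2.02 ± 0.356, from 76.7 ± 28.4 to 19.0 ± 6.00 CPM. Of 23 heparan sulfate and sulfation genes 7 fell and 0 rose. *Lgals1* (1.01), *Gcnt3* (0.66), and *Man2a2* (0.57), an enzyme of N-glycan trimming, were among those that rose. *B3gnt7* thus rose in spleen and fell in PPs after soluble OVA, with a tissue term of -3.36 (adjusted p = 0.00145). *Gcnt3*, a core 2 branching enzyme called higher after soluble OVA in both tissues, had a tissue term of -2.53 (adjusted p = 0.00362). Its level was low, with a mean of 4.09 CPM over the 12 libraries, and 5.65 CPM after PBS and 9.05 CPM after soluble OVA in PPs. *Man2a2* had a tissue term of 0.87 (adjusted p = 0.000901). Against PBS in PPs, OVA NPs gave no call among 118 by edgeR, 13 had an unadjusted p under 0.05, and DESeq2 called 1, *B4galnt1*.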

How the data were processed

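Poly(A) RNA-Seq libraries of B cells were aligned by the authors with STAR 2.7.8a to GRCm38 after trimming with cutadapt 2.3, and genes were quantified with RSEM 1.3.3; the deposited values are expected counts per gene, not normalized. Samples were grouped by tissue and treatment from their labels. The members and gene lists were chosen with earlier results of these data known. A planned cell type marker is not reported here and was left out of the sums and counts. Expected counts were rounded to whole numbers and tested with edgeR 4.0.16 (R 4.3.3): TMM scaling, filterByExpr (min.count 10, min.total.count 15), robust quasi-likelihood fit, 6 libraries per comparison (12 for tissue by treatment terms), and Benjamini-Hochberg adjustment over all genes tested. A call needed an adjusted p under 0.05 and, outside the terms, a log2 change over 0.25 in size. Named genes were all members, the 3 called glycan genes of largest change per direction and comparison with groups not overlapping and at least 1 CPM, and the 3 genes most correlated with each member. The test was checked on simulated data: for spleen OVA NP against PBS (14019 genes), 196 of 200 genes changed by 1 on the log2 scale were recovered with 9 false calls, and for the OVA NP term (16021 genes) 130 of 200 with 3. Every simulated gene had the same dispersion, and the changed genes were drawn from the better expressed ones. These counts therefore do not cover genes as variable as *Hs3st1* in PPs. Library totals and the level of 3 counts are given above and cover counting error only. Alternatives were DESeq2 1.42.0, its size factors, no count filter, all 18 libraries in 1 fit, a replicate block, no mitochondrial or immunoglobulin genes, no fold cutoff, and each library left out. Replicates are numbered in the labels as biological; whether equal numbers mark the same mouse in both tissues is not given in the sources used here. Exon lengths came from GENCODE on GRCm38, another release than the authors' annotation.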

Additional observations from a re-analysis of the deposited data

Results flagged for a closer look

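Tissue by treatment terms that passed the test, meaning that a treatment's difference from PBS was not the same in PPs as in spleen, are collected here for a closer look (log2, PP minus spleen, edgeR, 12 libraries each). For OVA NPs the member was *Fut8*, with -0.66 (95% interval -0.93 to -0.38; adjusted p = 0.0171). For soluble OVA they were *Cmah* with -0.61, *St3gal1* with -0.85, *B3gnt5* with -1.05, *Chst10* with -0.95, and *Hs3st1* with -1.47. *Chst10* is the member that changed after soluble OVA in PPs (-0.93) and was level in spleen (0.03), and *Hs3st1* likewise was lower in PPs (-1.26) with a difference of 0.21 in spleen. *Cmah*, *St3gal1*, and *B3gnt5* were lower in both tissues, and by more in PPs. For soluble OVA, 5 of 5 follicular naive and 6 of 8 germinal center markers also had a negative term that passed the test, and their part in these values was not tested.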

How the results depend on the processing

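With all 18 libraries in 1 fit, members called fell to 3 for spleen OVA NP against PBS, 3 for spleen soluble OVA against PBS, and 1 for spleen OVA NP against soluble OVA, where *Chst10* remained; the calls lost were *B3gnt5* (adjusted p = 0.0863) and *Hs3st1* (0.34), *St3gal1* (0.0867) and *B3gnt5* (0.103), and *Hs3st1* (0.743), respectively. In that comparison all genes called were 33 as reported, 83 by DESeq2, 230 without the count filter, and 14 with all libraries in 1 fit. For PP OVA NP against PBS these counts were 0, 150, 146, and 24. The tissue term for OVA NPs had 734 calls, 1253 by DESeq2, with 3 members by DESeq2 and 2 without the count filter, and the term for soluble OVA had 1131 calls and 1849 by DESeq2. Samples of equal number did not deviate together in every pair of any comparison, so the numbers were not taken to pair samples. With a replicate block, calls fell from 4697 to 3119 for PP OVA NP against soluble OVA and from 734 to 429 for the OVA NP term, and *B3gnt5* in spleen after OVA NPs (adjusted p = 0.0564), *Hs3st1* in PPs after soluble OVA (0.0669) and its term (0.0677), and *St6gal1* between the OVA treatments in PPs (0.0656) missed the threshold, while *Hs3st1* passed between tissues after PBS (0.02) and OVA NPs (0.0436).

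Leaving out each library in turn gave 1539 to 2889 calls for spleen OVA NP against PBS, 0 to 40 (members 0 to 3) for spleen OVA NP against soluble OVA, 0 to 8 for PP OVA NP against PBS, 291 to 945 (members 0 to 2) for the OVA NP term, and 655 to 1279 (members 3 to 5) for the soluble OVA term. Differences that were not called changed sign in some of these fits, with ranges of -0.156 to 0.048 for *St6gal1* in spleen after OVA NPs, -0.0223 to 0.111 for *Chst10* in spleen after soluble OVA, and -0.124 to 0.0182 for *B3gnt5* between the OVA treatments in spleen. In PPs after OVA NPs they were -0.0184 to 0.0954 for *Gcnt1*, -0.265 to 0.0479 for *B3gnt5*, -0.0414 to 0.106 for *Fut8*, and -0.599 to 0.123 for *Hs3st1*. The ratio *Gcnt1* over *St3gal1* ranged from -0.124 to 0.0378 between the OVA treatments in spleen and *St6gal1* over *Cmah* from -0.16 to 0.0759 in PPs after OVA NPs. No called member changed direction in these alternatives. The cause of each shift was not tested. With 3 libraries per group, *Hs3st1* in PPs, which varied most, is the value least well fixed.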
